A study of Mus musculus with 2 samples.

Results

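The cells described here are the thymic cells in which at least 1 transcript molecule of Foxp3 was counted and whose antibody tag gave 1 genotype. They number 887 of the 4638 cells kept from the whole capture. They were chosen by 4 criteria. A cell had at least 500 detected genes, at most 10% mitochondrial molecules, 1 hashtag making up at least 80% of at least 10 hashtag counts, and at least 1 unique molecular identifier (UMI, 1 counted transcript molecule) of Foxp3, whatever its Il2ra count. Of them, 416 came from a Foxp3eGFPxLta-/- mouse (called Lta-/- below) and 471 from a Foxp3eGFP mouse. Both mice were C57BL/6 and both carried the Foxp3eGFP reporter, so the loss of Lta was the one labelled difference between them. The deletion is named as Lta-/- only, with no cell type or driver given, and ages were not given in the sources used here. Live CD3e+ CD4+ CD8- thymocytes without CCR6 had been sorted if they carried CD25, the eGFP reporter or both, 20000 per mouse, and were tagged by mouse with CD45 hashtags and run through a single droplet capture (10x Genomics 3' chemistry, version 3.1). With 1 mouse per genotype there was no replicate of either group. No test was therefore made. Values in parentheses after a ratio or a share are the limits of its exact 95% interval. It reflects how many molecules or cells were counted and nothing of the spread between mice. For a ratio, molecules of the same cell are counted as independent, so the spread between cells is left out too.

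Regulatory T (Treg) cells are CD4 T cells that restrain immune responses, and the transcription factor Foxp3 is their defining regulator. In the thymus they arise from CD4 single-positive cells that receive a strong T cell receptor signal and then IL-2 signals through CD25, the receptor chain encoded by Il2ra. Lta encodes lymphotoxin alpha, a cytokine of the tumour necrosis factor (TNF) family that is secreted as a homotrimer or held at the membrane together with lymphotoxin beta, the product of Ltb. Type I interferons are also made in the thymus at rest, and mature thymocytes carry transcripts of interferon-stimulated genes.

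The 2 genotypes had close depth within these cells. The Lta-/- cells held 2383168 UMIs in total with a median of 5135 per cell and 1887 genes, and the Foxp3eGFP cells 2829070 UMIs with medians of 5165 and 1909. The median share of mitochondrial UMIs was 1.71% and 1.68%. Genotypes came from the names of the hashtag features, whose antibody numbers are not those of the written protocol. The own hashtag had a median of 3495 counts against 43 of the other in Lta-/- cells, and 5126 against 29 in Foxp3eGFP cells. Another 63 cells with Foxp3 carried both hashtags and were left out, and no barcode occurred more than once.

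Foxp3, whose count chose the cells, was thinly sampled. Most cells stood just inside the threshold, with exactly 1 Foxp3 UMI in 245 Lta-/- (58.9%) and 261 Foxp3eGFP cells (55.4%). Cells with 2 UMIs numbered 110 and 122, cells with 3 or more 61 and 88, and the most in any cell was 7 and 8. Just outside the threshold, 1828 Lta-/- and 1738 Foxp3eGFP cells had passed the same sort and had 0 Foxp3 UMIs. The sort took cells with eGFP and also cells with CD25 alone. A count of 0 therefore does not show whether the protein was present or absent. Among all assigned cells, those with Foxp3 made up 18.5% (16.95 to 20.2) in the Lta-/- mouse and 21.3% (19.6 to 23.1) in the Foxp3eGFP mouse. After each cell was thinned to 3000 UMIs, which left out 162 and 147 shallower cells, the shares were 11.6% (10.3 to 13.1) and 15.2% (13.7 to 16.8). In cluster 5, with Ccr9 and other genes of early CD4 single-positive cells at its head, Foxp3 was found in 1.06% (0.291 to 2.70) of 376 cells. Their median was 5382.5 UMIs. Whether free RNA gave these Foxp3 counts was not tested. Other Treg markers were present alongside Foxp3. Ikzf2 (Helios) was detected in 78.6% of Lta-/- and 83.7% of Foxp3eGFP cells, Tnfrsf18 (GITR) in 80.8% and 82.8%, and Ctla4, an inhibitory receptor, in 43.3% of both.

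Lta itself was nearly missing from the cells labelled Lta-/-. It had 19 UMIs in them against 172 in the Foxp3eGFP cells, or 7.97 against 60.8 counts per 1000000 UMIs (CPM). The log2 ratio of Lta-/- over Foxp3eGFP CPM, the scale used for every ratio below, was -2.93 (-3.70 to -2.24). A UMI of Lta was found in 17 Lta-/- cells, 4.09% (2.40 to 6.46), and in 99 Foxp3eGFP cells, 21.0% (17.4 to 24.98). In the cells with 0 Foxp3 UMIs of the same mice the ratio was -2.61 (-3.05 to -2.19). The position of the deletion relative to the counted 3' end was not given in the sources used here, so what the 19 UMIs represent was not tested. Lta in the control cells was concentrated where Il2ra was found, at 86.2 CPM in Foxp3eGFP cells with an Il2ra UMI and 33.2 CPM in those without. Ltb, which lies beside Lta and encodes its membrane partner, was detected in nearly all cells and stood at 1057 and 1051 CPM, a log2 ratio of 0.0083 (-0.069 to 0.085). Tnf, the other neighbour, had 24 and 37 UMIs, a log2 ratio of -0.38 (-1.18 to 0.40). Ltbr, the receptor for the membrane form, had 0 and 1 UMIs.

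Across the transcriptome the 2 genotypes were close. Of 5697 genes with at least 100 UMIs over both genotypes (called measured below), 45 (0.79%) were at least 1.5-fold higher and 82 (1.44%) at least 1.5-fold lower in the Lta-/- cells, 127 (2.23%) in all, and the median log2 ratio was -0.019. Of these, 43 (0.755%) and 80 (1.4%) also had an interval that left out a ratio of 1. With at least 100 UMIs, a gene past 1.5-fold nearly always has such an interval, so these counts add little. The whole interval lay past 1.5-fold for 3 genes on the higher side (0.0527%) and 20 on the lower side (0.351%). The 3 higher genes, Dnah8, Glo1 and H2-Q7, all lie on chromosome 17 with Lta. The lower ones included genes of the interferon response, Lta, Abca1, Penk, Nrip1 and Ly6k. Among them were also Ccl4, Xcl1 and Cd74, most of whose UMIs lay in single cells. In the more numerous cells with 0 Foxp3 UMIs, where 9366 genes were measured, 146 (1.56%) were at least 1.5-fold higher and 234 (2.5%) lower.

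**Figure D1:**
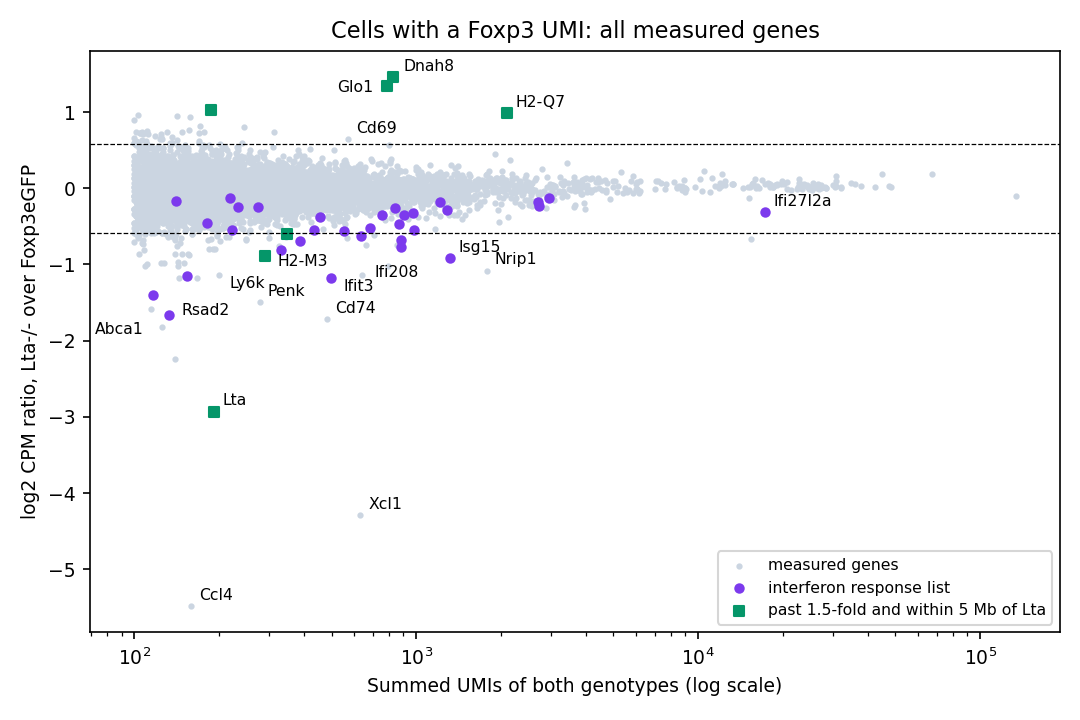
Each point is 1 of the 5697 measured genes in cells with a Foxp3 UMI, with its summed UMIs of both genotypes on a log axis and its log2 CPM ratio of Lta-/- over Foxp3eGFP on the other. Dashed lines mark 1.5-fold. The interferon response genes, in purple, all lie below 0, and Dnah8, Glo1 and H2-Q7 lie above the upper line.

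The broadest difference lay in the interferon response genes, which were lower in Lta-/- cells. The list holds 38 genes that cells switch on after type I interferon, and 32 of them were measured. Of these 32, 10 were at least 1.5-fold lower and 0 higher, against 1.44% and 0.79% of all measured genes. All 32 log2 ratios were below 0, 28 of them with an interval that also lay below 0, and their median was -0.46 beside -0.019 over all genes. Summed over the list, Lta-/- cells had 16762 UMIs (7033 CPM) and Foxp3eGFP cells 25697 (9083 CPM), a log2 ratio of -0.37 (-0.40 to -0.34). Ifi27l2a, a small membrane protein gene, made up 40.7% of these UMIs at a log2 ratio of -0.32, and without it the sum was at -0.41. A difference of this list between the genotypes was already known when these cells were chosen, so its direction here is not independent support for it.

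Within the list, the antiviral effectors Rsad2, Ifit3b, Ifit3 and Oasl2 gave the largest ratios. Rsad2, which encodes viperin, had 28 UMIs in Lta-/- and 105 in Foxp3eGFP cells, and its log2 ratio was -1.66 (-2.32 to -1.05). Its detection was 6.01% against 12.7% of the cells. Ifit3, whose product binds viral RNA together with other IFIT proteins, had 135 and 363 UMIs (56.6 and 128 CPM) and a log2 ratio of -1.18 (-1.48 to -0.89). Ifit1, which encodes a sensor of foreign RNA caps, had 292 and 590 UMIs, or -0.77 (-0.97 to -0.56). Ifit3b was at -1.40 (-2.07 to -0.78) on 28 and 88 UMIs, but Ifit3 and Ifit3b are near-identical copies whose reads may be split between them, so their separate values are uncertain. Oasl2, of the oligoadenylate synthetase family, was at -1.15 (-1.70 to -0.63). In each of these 5 genes fewer Lta-/- cells than Foxp3eGFP cells had a UMI.

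Isg15, a ubiquitin-like modifier, was the most abundant of the members past 1.5-fold. It had 405 UMIs in Lta-/- and 908 in Foxp3eGFP cells, 170 and 321 CPM, and a log2 ratio of -0.92 (-1.09 to -0.75). Cells with an Isg15 UMI made up 39.9% (35.2 to 44.8) of the first and 56.1% (51.4 to 60.6) of the second genotype, so both the share of cells and the level were lower. Usp18, the protease that removes ISG15 and dampens the interferon receptor, was at -0.81 (-1.15 to -0.47), and Herc6, the mouse ligase that attaches it, at -0.70 (-1.01 to -0.39). Parp14, an ADP-ribosyltransferase, was at -0.67 (-0.88 to -0.47) and Rtp4 at -0.62 (-0.86 to -0.38). The transcription factors were within 1.5-fold. Irf7, which amplifies type I interferon production, was at -0.52 (-0.75 to -0.30), Irf9 at -0.26 (-0.47 to -0.062) and Stat2 at -0.24 (-0.63 to 0.15). Outside the list, the rule named 2 genes of the interferon-inducible HIN-200 family, Ifi208 at -1.13 (-1.39 to -0.88) on 178 and 463 UMIs and Ifi213 at -0.75 (-0.99 to -0.51). Aim2, a DNA sensor of the same family named here after its value was seen, was at -0.99 (-1.63 to -0.39) on 33 and 78 UMIs.

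**Figure D2:**
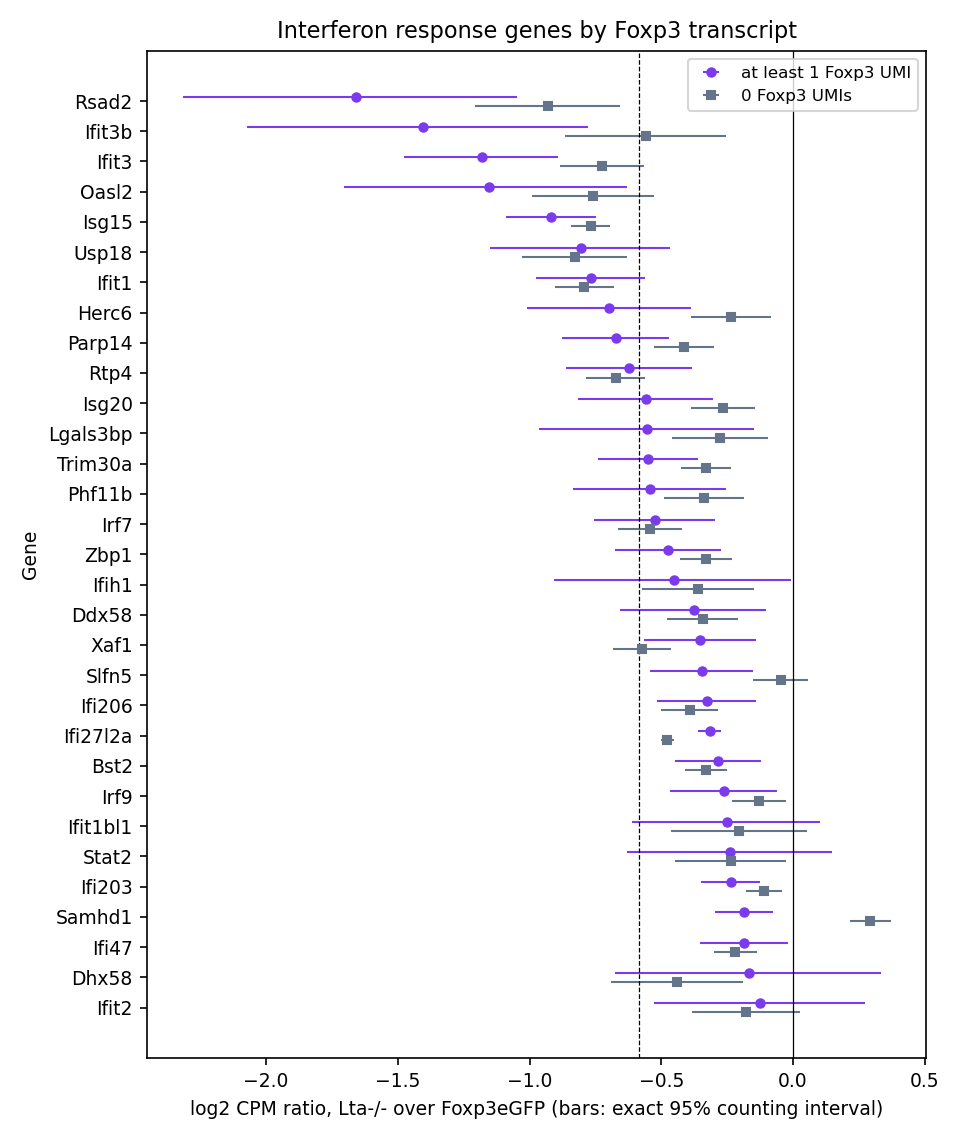
Log2 CPM ratio of Lta-/- over Foxp3eGFP for 31 of the 32 measured interferon response genes, in cells with at least 1 Foxp3 UMI (purple circles) and in cells with 0 (grey squares), with exact 95% counting intervals. All purple circles lie below 0, with Rsad2 farthest at -1.66, and the dashed line marks 1.5-fold lower.

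The promoters of 4 of these genes are shown because they carry the sequence pattern that interferon-activated factors bind. The pattern searched was GAAANNGAAA on either strand (TTTCNNTTTC on the other), the core of the interferon-stimulated response element, in the 250 bases before each gene start (RefSeq, GRCm38.p6). Each sequence is the 170 bases directly upstream of the start, 5' to 3' on the gene's strand, with matches in capitals. Isg15 is at chr4:156200819-156200988 on the minus strand, Ifit1 at chr19:34640719-34640888 and Ifit3 at chr19:34583359-34583528 on the plus strand, and Rsad2 at chr12:26456453-26456622 on the minus strand.
Isg15: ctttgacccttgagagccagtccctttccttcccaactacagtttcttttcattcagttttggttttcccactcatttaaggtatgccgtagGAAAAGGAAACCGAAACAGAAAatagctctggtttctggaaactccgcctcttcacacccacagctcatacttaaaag
Ifit1: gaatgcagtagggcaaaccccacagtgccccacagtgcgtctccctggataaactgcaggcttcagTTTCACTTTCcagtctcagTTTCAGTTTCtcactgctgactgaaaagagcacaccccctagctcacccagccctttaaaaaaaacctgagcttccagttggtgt
Ifit3: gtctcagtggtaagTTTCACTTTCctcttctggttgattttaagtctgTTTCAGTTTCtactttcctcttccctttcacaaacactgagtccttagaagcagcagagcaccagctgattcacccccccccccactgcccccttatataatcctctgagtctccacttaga
Rsad2: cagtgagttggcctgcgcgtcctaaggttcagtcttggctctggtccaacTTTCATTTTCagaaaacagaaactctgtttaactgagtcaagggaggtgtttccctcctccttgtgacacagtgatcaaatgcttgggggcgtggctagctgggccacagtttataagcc
Isg15 holds 3 overlapping matches in a single run, Ifit1 and Ifit3 hold 2 each and Rsad2 holds 1. Across the table, 2.98% of 32851 promoter windows held the pattern, and 3.63% of the 4602 measured genes with a window did. Of the 25 measured interferon response genes with a window, 13 (52.0%) held it. Of the 10 lower members, 7 had a window, and Isg15, Rsad2, Ifit1, Ifit3 and Ifit3b held the pattern while Oasl2 and Herc6 did not. The share was 44.4% (8 of 18) among the members within 1.5-fold and 58.3% (7 of 12) in a separate list of interferon-gamma associated genes. Genes lower outside the list held it in 4 of 55 cases (7.27%) and genes higher in 0 of 39. A match is a stretch of letters and was not read as a bound site.

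Those interferon-gamma associated genes differed less. Of 17 measured members, 0 were past 1.5-fold in either direction, against 2.23% of all measured genes. Their median was -0.13 and the summed log2 ratio -0.11 (-0.16 to -0.057). The guanylate-binding protein gene Gbp2 was at 0.50 (0.11 to 0.88), with 126 and 106 UMIs. A single Lta-/- cell held 34 of the 126, and with each cell weighted equally the ratio was 0.045.

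The interferon difference was spread over the cells. With each cell thinned to 3000 UMIs, the 392 Lta-/- cells deep enough had a median of 19 UMIs of the list per cell, with 10% of cells below 9 and a maximum of 64. The 441 Foxp3eGFP cells had a median of 26, with 10% below 11 and a maximum of 119. The ranges overlapped widely. The 25th, 75th and 90th percentiles were 13, 27 and 37.9 UMIs in Lta-/- cells and 17, 38 and 52 in Foxp3eGFP cells. The gap in counts therefore widened towards the upper end, where the counts themselves were larger. Cells above 47 UMIs, the 90th percentile of both together, numbered 23 in the Lta-/- genotype, or 5.87% (3.76 to 8.67), and 58 in the Foxp3eGFP genotype, or 13.2% (10.1 to 16.7).

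**Figure D3:**
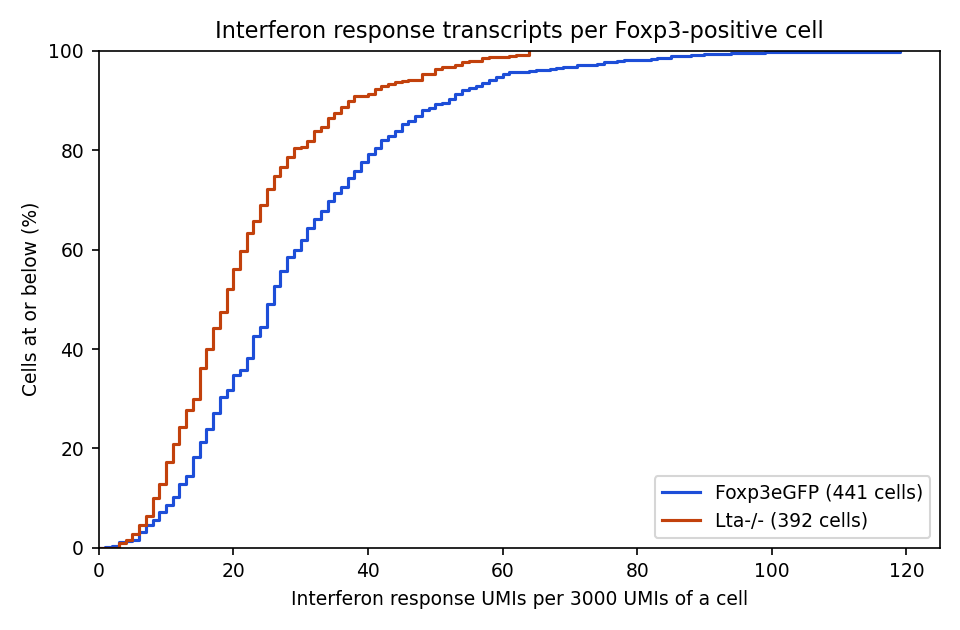
Cumulative share of cells with a Foxp3 UMI (vertical axis, %) at or below each number of interferon response UMIs per 3000 UMIs of a cell (horizontal axis). The Lta-/- curve lies to the left, with a median of 19 against 26 UMIs, and ends at 64 against 119.

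Every subdivision of these cells that was examined had less of the interferon list in the Lta-/- genotype. Its summed log2 ratio was -0.34 in cells with an Il2ra UMI and -0.39 in those without. By Foxp3 count it was -0.27 (-0.31 to -0.23) in cells with 1 UMI, -0.34 (-0.40 to -0.29) with 2 and -0.68 (-0.75 to -0.61) with 3 or more. In that last class, Lta-/- cells stood at 6634 CPM and Foxp3eGFP cells at 10654 CPM. Foxp3eGFP cells had 8520 CPM at 1 Foxp3 UMI and 10654 CPM at 3 or more, while Lta-/- cells lay between 6634 and 7196 CPM in all 3 classes. Differences between these classes were not tested, and each class holds cells of the same 2 mice. In the cells with 0 Foxp3 UMIs the list was at -0.38 (-0.40 to -0.37), on lower levels of 5106 and 6664 CPM.

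Genes around Lta on chromosome 17 formed a second group, with differences in both directions. Lta lies at 35203165 to 35205578 (GRCm38), in the gene-dense region of the major histocompatibility complex. Of 86 other measured genes that start within 5 Mb of it, 4 were at least 1.5-fold higher and 2 lower, or 6.98%. The share was 2.44% of 205 genes on the rest of chromosome 17 and 2.09% of 5367 genes on other chromosomes. The median log2 ratio of the 86 was -0.010, so the region as a whole was not displaced.

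Dnah8 and Glo1, neighbours on the low-coordinate side of Lta, gave the largest ratios of the 6 higher genes that the rule named. Dnah8, which encodes a dynein heavy chain of motile cilia, lies at 30626935 to 30875762. It had 576 UMIs in Lta-/- cells (242 CPM) and 249 in Foxp3eGFP cells (88.0 CPM), a log2 ratio of 1.46 (1.24 to 1.68), and was found in 58.9% and 35.9% of cells. Glo1, the glyoxalase that detoxifies methylglyoxal, lies at 30592861 to 30612659. It had 536 and 251 UMIs and a log2 ratio of 1.34 (1.12 to 1.56). The ratios were alike in the cells with 0 Foxp3 UMIs, at 1.37 and 1.36. Within the Foxp3-positive cells, Glo1 lay between 1.28 and 1.46 in clusters 0, 1, 2, 3 and 6, while Dnah8 lay between 1.18 and 2.20 in clusters 0 to 3 and at 0.30 (-0.87 to 1.49) in cluster 6.

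The other neighbours past 1.5-fold were genes of antigen presentation and Daxx. H2-Q7, a class Ib molecule of the Qa-2 group, lies 0.24 Mb after Lta and had 1314 and 790 UMIs (551 and 279 CPM), a log2 ratio of 0.98 (0.85 to 1.11). It was found in 77.9% and 73.7% of cells, so the level differed more than the share of cells. H2-Q6, at 1.02 (0.58 to 1.47), is a near-identical copy of H2-Q7, and how reads were divided between them is uncertain. H2-M3, which presents formylated peptides, lies 2.07 Mb after Lta and was lower at -0.89 (-1.26 to -0.52), with 91 and 200 UMIs. Daxx, a histone chaperone and death-domain-associated protein, was at -0.61 (-0.93 to -0.28) but at -0.10 in the cells with 0 Foxp3 UMIs. Whether the genotypes differ in sequence around Lta was not tested.

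**Figure D4:**
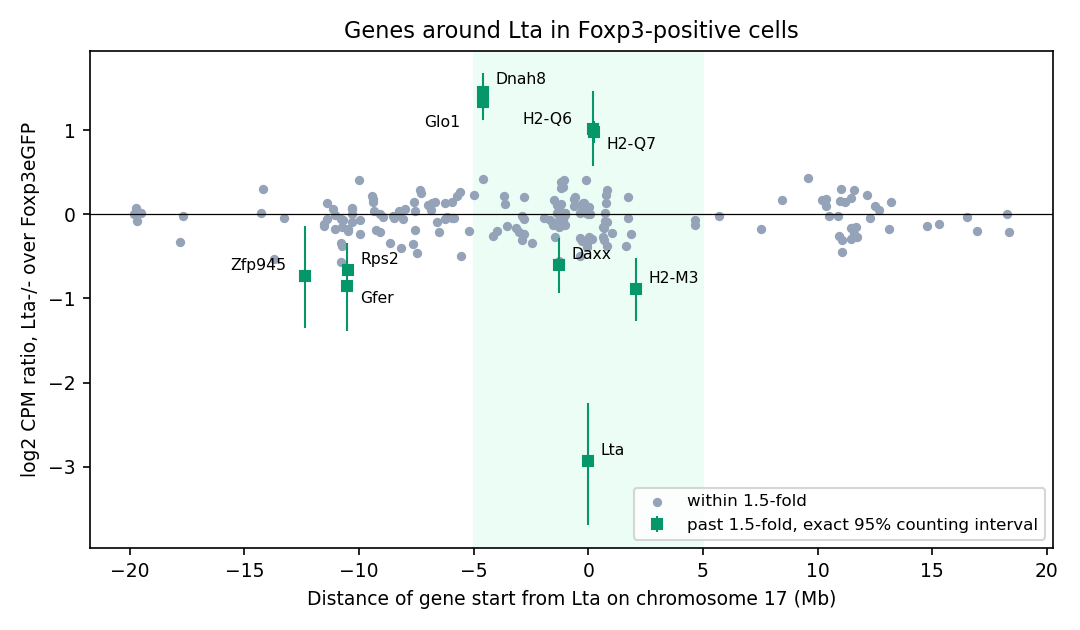
Log2 CPM ratio of Lta-/- over Foxp3eGFP in cells with a Foxp3 UMI for measured genes within 20 Mb of Lta on chromosome 17, by distance of the gene start in Mb. Green squares with exact 95% counting intervals are past 1.5-fold, and the shaded band marks 5 Mb either side. Inside the band 4 genes lie above 1.5-fold and 3 below, Lta among the latter.

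Rps2, farther out on chromosome 17 at 24718121 to 24721927, was singled out after its value was seen. It encodes a protein of the small ribosomal subunit and had 5346 UMIs in Lta-/- and 10046 in Foxp3eGFP cells, 2243 and 3551 CPM, and a log2 ratio of -0.66 (-0.71 to -0.61). Nearly every cell had it, 98.3% and 100%. The 76 other measured ribosomal protein genes lay between -0.029 and 0.12, with a median of 0.024. In the cells with 0 Foxp3 UMIs Rps2 stood at -0.65.

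Of the other genes named by the rule, Nrip1 had the largest difference in counts. Nrip1 encodes RIP140, a corepressor of nuclear receptors. It had 505 UMIs in Lta-/- and 1268 in Foxp3eGFP cells, 212 and 448 CPM, a log2 ratio of -1.08 (-1.23 to -0.93), and was found in 54.8% (49.9 to 59.7) and 71.3% (67.0 to 75.4) of cells. Its ratio lay between -1.67 and -0.87 in clusters 0, 1, 2, 3 and 6, and was -0.60 (-0.67 to -0.53) in the cells with 0 Foxp3 UMIs. Ly6k, a GPI-anchored protein of the Ly6 family, was at -1.14 (-1.62 to -0.68) on 55 and 144 UMIs. Bmyc, a relative of Myc, was at -0.74 (-0.95 to -0.53), but at -0.27 in cells with at least 2 Foxp3 UMIs. Gpr183, the oxysterol receptor that guides lymphocyte migration, was at -0.76 (-1.11 to -0.42), but at -0.30 with each cell weighted equally.

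On the higher side only 6 genes passed 1.5-fold under the rule. Beside Dnah8, Glo1 and H2-Q7 these were Ahnak, Cd69 and Tnfsf8. Ahnak, a large scaffold protein, had 146 and 99 UMIs and a log2 ratio of 0.81 (0.43 to 1.19). Cd69, an activation antigen that holds lymphocytes in tissue, had 326 and 247 UMIs and a log2 ratio of 0.65 (0.40 to 0.89). Tnfsf8, the CD30 ligand, was at 0.60 (0.22 to 0.98). Without the cell with the most UMIs of each gene, Cd69 was at 0.57 and Tnfsf8 at 0.45, both within 1.5-fold. The next 6 by rule, all within 1.5-fold, were Cirbp, a cold-inducible RNA-binding protein (0.57), Fcf1 (0.55), Hbp1 (0.55), Atp6ap2 (0.54), Gbp2 and Klhdc2 (0.50).

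Penk and Abca1 differed mainly in how many cells had them. Penk encodes proenkephalin, the precursor of enkephalin opioid peptides, and is in the Treg core list. It had 64 UMIs in 5 Lta-/- cells (1.20%, 0.391 to 2.78) and 214 UMIs in 39 Foxp3eGFP cells (8.28%, 5.95 to 11.1), a log2 ratio of -1.49 (-1.92 to -1.08). The few Lta-/- cells with Penk were in clusters 3 and 6, where its log2 ratio was 0.20 and 0.22, while clusters 0, 1 and 2 had 0 Lta-/- UMIs against 92, 33 and 25. In the cells with 0 Foxp3 UMIs it was at -3.25 (-3.61 to -2.91). Abca1, the cholesterol exporter, was chosen after its values were seen, because it fell outside the rule on CPM. It had 24 UMIs in 23 Lta-/- cells (5.53%) and 101 in 80 Foxp3eGFP cells (16.99%), a log2 ratio of -1.83 (-2.53 to -1.17), and -1.40 in the cells with 0 Foxp3 UMIs.

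**Figure D5:**
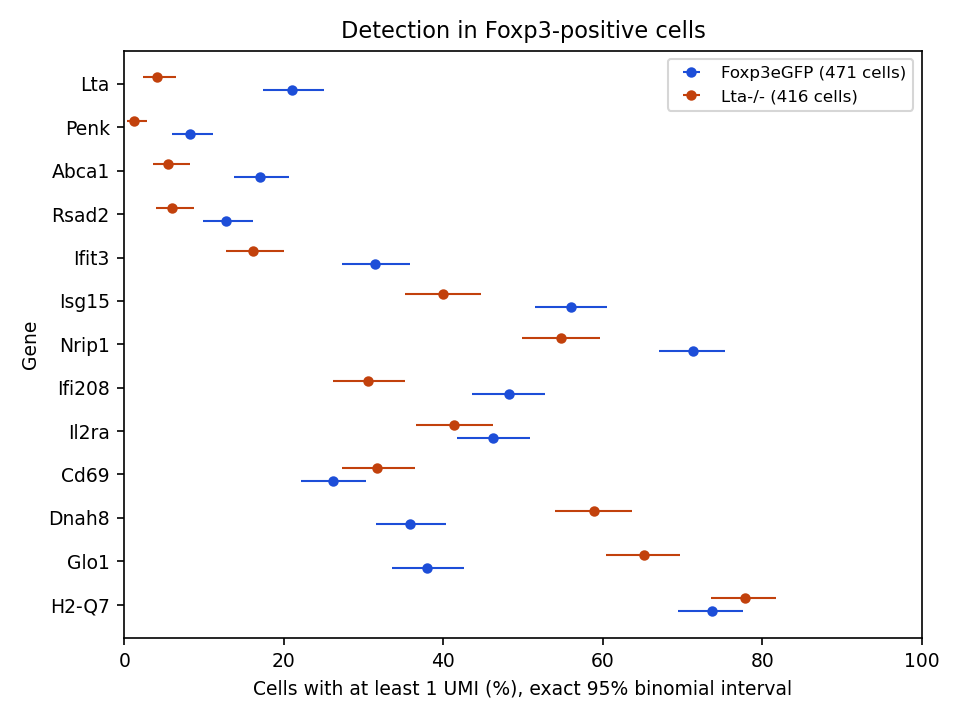
Share of cells with at least 1 UMI of each gene (%) among the 471 Foxp3eGFP (blue) and 416 Lta-/- (red) cells with a Foxp3 UMI, with exact 95% binomial intervals. The intervals are apart for Lta, Penk, Abca1, Rsad2, Ifit3, Isg15, Nrip1, Ifi208, Dnah8 and Glo1, and overlap for Il2ra, Cd69 and H2-Q7.

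The transcripts of the sort markers were compared next. The Foxp3 level within the chosen cells is a description only, and it stood at 285 and 292 CPM. Il2ra had 470 UMIs in Lta-/- and 698 in Foxp3eGFP cells, 197 and 247 CPM, and a log2 ratio of -0.32 (-0.49 to -0.15). A single Foxp3eGFP cell held 36 of the 698, and without it the ratio was -0.25 (-0.42 to -0.077). Among cells with an Il2ra UMI it was -0.10 (-0.27 to 0.070). The shares of cells with Il2ra, 41.3% (36.6 to 46.2) and 46.3% (41.7 to 50.9), have overlapping intervals. By Foxp3 count the Il2ra ratio was -0.32 with 1 UMI, 0.028 (-0.29 to 0.35) with 2 and -0.64 (-1.01 to -0.28) with 3 or more. In the cells with 0 Foxp3 UMIs it was -0.34.

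Genes of IL-2 receptor signalling leaned lower in Lta-/- cells. Of 13 measured members, 1 was at least 1.5-fold lower and 0 higher, 11 of 13 ratios were below 0, the median was -0.20 and the summed log2 ratio was -0.17 (-0.22 to -0.12). Over all measured genes, 1.44% were lower and 0.79% higher, with a median of -0.019. A count of 0 or 1 in this list or the short lists below therefore says little about its members. The member past 1.5-fold was Cish, a STAT5 target that feeds back on cytokine receptors. It had 198 and 369 UMIs, a log2 ratio of -0.65 (-0.91 to -0.40), and was found in 27.6% and 37.2% of cells. Its difference was widest in cluster 0, at -1.16 (-1.58 to -0.76), and cluster 3 had -0.053 (-0.63 to 0.52). Stat5a was at -0.39 (-0.70 to -0.070), the receptor chain Il2rb at -0.29 (-0.50 to -0.073), Il7r at -0.31 and the survival gene Bcl2 at -0.18, while the kinase Pim1 was at 0.22 (0.031 to 0.42). The same list was at 0.035 (0.0086 to 0.061) in the cells with 0 Foxp3 UMIs, where Il7r stood at 0.51 and Cish at -0.26. The difference between the cells with and without Foxp3 was not tested. The IL-4 and STAT6 list had 0 of 8 measured members past 1.5-fold and a median of -0.11, with Gata3 at -0.26 (-0.51 to -0.012) and the receptor Il4ra at 0.13 (-0.26 to 0.52).

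The Treg core genes were close between the genotypes. Of 16 measured members, 1 (Penk) was lower and 0 higher, against 1.44% and 0.79% of all measured genes. The median was -0.017 and the summed log2 ratio -0.042 (-0.088 to 0.0027). Ikzf2 was at -0.026, Tnfrsf18 at -0.083, Ctla4 at -0.083, Lrrc32, the receptor for latent TGF-beta, at 0.037, and Nrp1 at 0.19 (-0.084 to 0.45). Nt5e, the ectoenzyme CD73, was at -0.57 (-0.95 to -0.19), just within 1.5-fold, and at 0.031 in the cells with 0 Foxp3 UMIs. Of 8 measured suppressive and effector genes 0 were past 1.5-fold, and Maf was at 0.49 (0.065 to 0.91).

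A list of genes that mark Treg cells returning from the periphery leaned higher. The sort had taken only cells without CCR6, whose gene Ccr6 is in this list. Whether the values reflect returning cells was not tested. Of 9 measured members of that list 0 were past 1.5-fold, all 9 were above 0, and the median was 0.27, with a summed log2 ratio of 0.20 (0.15 to 0.26). Vim, the intermediate filament protein vimentin, was at 0.33 (0.23 to 0.42) on 1762 and 1669 UMIs, and Crip1, the most abundant member, at 0.073 (-0.025 to 0.17). The list was at 0.38 in cells with an Il2ra UMI and 0.032 (-0.047 to 0.11) in those without. By cluster it was highest in cluster 3, at 0.80, and it was at -0.29 (-0.42 to -0.16) in cluster 6, the one that carries such genes most. In the cells with 0 Foxp3 UMIs it was at -0.053.

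Most genes induced by strong T cell receptor signals stayed within 1.5-fold. Of 18 measured members 1 (Cd69) was higher and 2 (Ccl4 and Xcl1) lower, against 0.79% and 1.44% of all measured genes. Their median was 0.059. Most UMIs of both lower members lay in 1 Foxp3eGFP cell. The immediate early genes Egr3 (0.56, 0.020 to 1.10), Nr4a1 (0.43, 0.085 to 0.78) and Nfkbid (0.50, 0.017 to 0.99) were above 0 and within 1.5-fold. The summed log2 ratio of -0.17 rested on that cell, rich in Xcl1 and described below, and was 0.0035 (-0.047 to 0.054) without it. The agonist-signalled precursor markers, which share members with this list, were at 0.17 (0.073 to 0.28) without the same cell. A list of dissociation stress genes, which tissue handling induces, was at 0.011 in these cells with 0 of 12 members past 1.5-fold.

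Of the TNF receptors and the NF-kB genes downstream of them, 0 of 20 were past 1.5-fold in either direction. The share over all measured genes was 2.23%. Their median was -0.056. The costimulatory receptors that mark Treg precursors were the members with an interval below 0, Tnfrsf4 (OX40) at -0.21 (-0.31 to -0.12) and Tnfrsf9 (4-1BB) at -0.25 (-0.47 to -0.029). Nfkb2, a target and subunit of the noncanonical arm, was at -0.016 (-0.48 to 0.44). Tnfrsf1b, a receptor that the secreted lymphotoxin can bind, was at -0.094 (-0.52 to 0.33) on 86 and 109 UMIs. Beside Lta, 4 ligands of the family were measured, and of these Tnfsf8 alone was past 1.5-fold.

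Few maturation and lineage genes were past 1.5-fold, as was so of all measured genes (2.23%). The maturation and egress list had 0 of 20 measured members past 1.5-fold and a median of -0.042. S1pr1, the receptor used to leave the thymus, was at -0.0081 (-0.13 to 0.12), Gimap3 at -0.26 (-0.37 to -0.16) and the chemokine receptor Ccr7 at 0.26 (0.11 to 0.41). The lists of immature thymocyte genes (8 measured), apoptosis and survival genes (14) and chemokine receptors and homing (10) each had 0 members past 1.5-fold. Among 11 helper lineage regulators 1 was higher, Id2 at 0.64 (0.14 to 1.14). Its relative Id3 was at 0.45 (0.32 to 0.58), and Zbtb7b, which directs the CD4 fate, at -0.54 (-0.99 to -0.099). Of 16 proliferation genes 1 was lower, the replication helicase subunit Mcm2 at -1.02 (-1.66 to -0.41) on 32 and 77 UMIs, while the cycling marker Mki67 was at 0.50. The proliferation sum, at -0.074, turned to 0.32 in cells without an Il2ra UMI and was at -0.68 in those with one.

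The cells lay mainly in 5 of the 10 clusters of the whole capture, at similar shares in both genotypes. Genes that differed between the genotypes, the sort genes and the interferon lists had been left out of the clustering. The clusters were therefore not formed on interferon response genes. Cluster 0 was led by S1pr1 and Klf3, genes of mature thymocytes, together with the Treg genes Ctla4 and Gpr83. Among all kept cells it had the highest share with a Foxp3 UMI of the 10 clusters, 43.7% against 29.3% in cluster 2. It held 184 Lta-/- cells, 44.2% (39.4 to 49.2), and 232 Foxp3eGFP cells, 49.3% (44.7 to 53.9). Cluster 2, mature Treg-like, held 24.8% (20.7 to 29.2) and 20.2% (16.6 to 24.1). Cluster 3, agonist-signalled precursor-like, held 10.8% and 11.04%. Cluster 6, recirculating or effector Treg-like whose leading genes also include Cxcr6 and Klrd1 of innate-like T cells, held 9.38% and 7.22%. The unnamed cluster 1 held 6.97% and 8.07%, and the intervals of the shares overlapped in all 5. In all 5 the interferon list stood below 0, at -0.33 in cluster 0, -0.31 in cluster 2, -0.45 in cluster 3, and -0.68 and -0.69 in clusters 1 and 6, each of which held under 40 cells per genotype.

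Some of the largest ratios belonged to single cells. One Foxp3eGFP cell of cluster 3, with 19720 UMIs, held 554 of the 604 Xcl1 UMIs of its genotype, 158 of the 159 Ccl4 UMIs and 70 of the 121 Nkg7 UMIs, beside 2 of Foxp3. Xcl1 and Ccl4 are chemokines of activated and cytotoxic lymphocytes. With that cell Xcl1 was at -4.29, and without it at -0.71 (-1.45 to 0.0053) on 26 and 50 UMIs. Ccl4, with 0 UMIs in Lta-/- cells, was 44.6-fold lower with 3 counts in place of the 0, a log2 ratio of -5.48. The limit of its exact interval was -5.17, a smaller difference. Apart from that cell, the Foxp3eGFP cells held 1 Ccl4 UMI. A second Foxp3eGFP cell, with 10524 UMIs and in the cluster led by macrophage genes, held 301 of 382 Cd74 UMIs, 78 of H2-Aa, 88 of H2-Ab1 and 25 of Lyz2. Without it Cd74 was at 0.52 (0.077 to 0.96) in place of -1.72. Of the 127 genes past 1.5-fold, 93 were still so when the cell with most of their UMIs was left out and 34 were not.

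Markers of other cell types were present at low levels and leaned lower in Lta-/- cells in several lists. The innate-like T or NKT list summed to 394 UMIs in Lta-/- and 1176 in Foxp3eGFP cells, a log2 ratio of -1.33, with Zbtb16 and Klrb1c at 0. The B cell list summed to 371 and 821 UMIs (-0.90), with Pax5 at 0, and the myeloid or dendritic list to 267 and 586 (-0.89), with Csf1r, Itgax and Siglech at 0. The natural killer and innate lymphoid list summed to 21 and 97 UMIs (-1.96), with Ncr1, Klra8 and Klrb1b at 0, and the gamma-delta T list to 47 and 96 (-0.78), with Cd163l1, Trdv4 and Blk at 0. Without both single cells described above, the B list stood at 0.32 and the myeloid list at -0.16 (-0.40 to 0.071). The other 3 stayed below 0, the natural killer list at -1.26 (-2.05 to -0.52), the gamma-delta list at -0.80 (-1.33 to -0.28) and the innate-like list at -0.24 (-0.43 to -0.052). The interferon list was then at -0.38 (-0.41 to -0.35), and the part of these other lists in the interferon difference was not tested. The innate-like list includes the IL-2 receptor gene Il2rb. The natural killer list includes Tyrobp, which is also a leading gene of the cluster led by macrophage genes. These sums therefore do not single out innate-like or natural killer cells. All 6 erythroid genes were at 0. Xist had 2391 and 2787 UMIs, and the Y-linked genes Ddx3y, Eif2s3y and Uty had 0 in both genotypes.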

How the data were processed

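Droplet 3' single-cell RNA sequencing was done on 1 capture of sorted thymic cells pooled from 2 mice. Per the labels' protocols the mice were told apart by hashtag. The authors deposited UMI counts per gene, hashtag and barcode as whole numbers before any normalization, and the submitters' processing notes name Cell Ranger 6.0.1 and the builds mm10 and GRCm38. How cells were called from droplets is not stated in the sources used here. The matrix held 4798 barcodes and 32285 genes, and 4638 barcodes were kept. Cells with both hashtags (185, or 3.99%) were left out, which removes doublets between the mice. Doublets within a genotype were not removed, and no doublet caller was run. The number of per-sample columns left unused was 0.

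The members and gene lists were chosen with earlier results of these data known. Counts were summed per genotype and divided by total UMIs (CPM). Intervals at 95% came from the exact binomial method of Clopper and Pearson, conditional on both counts for a ratio. A 0 was replaced by 3 counts over the group. The ratio code was tested on simulated data.

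Named genes were, for higher and for lower ratios, the top 12 of those that reached 100 UMIs over both genotypes, 50 CPM in the higher genotype, a UMI in at least 10% of its cells and at most 20% of UMIs in 1 cell. Foxp3, Lta, Il2ra, mitochondrial, ribosomal protein, Gm, Rik, sex-linked and receptor segment genes were left out of that rule. Members of the fixed lists and genes within 5 Mb of Lta could be named too, and any other name was chosen after its values were seen. Some single genes are not reported here. There were 18 lists of pathways and checks and 17 of cell types.

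Clusters used 2000 variable genes, 30 principal components, 15 neighbours and Leiden resolution 0.6. In all, 1181 genes were left out, 477 of them because they differ between genotypes. The others included the interferon lists, Foxp3, Il2ra, Ltb, the sex-linked genes and the receptor segments. RefSeq tables for GRCm38 gave positions, found for 99.3% of the measured genes, and promoters. Alternatives covered cell, hashtag, Foxp3, Il2ra and count thresholds, thinning, weighting, scaling and clusters. Software was Python 3.11.15, numpy 2.4.6, scipy 1.17.1, pandas 2.3.3, scanpy 1.11.5, matplotlib 3.10.9, scikit-learn 1.9.0 and igraph 0.11.9.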

Additional observations from a re-analysis of the deposited data

Results flagged for a closer look

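Xcl1, Ccl4 and Cd74 pointed in opposite directions in 2 sets of cells of the same mice, and the differences between the sets were not tested. Xcl1 had a log2 ratio of -7.75 in Foxp3-positive cells with an Il2ra UMI and 1.62 in those without. Ccl4 was at -5.48 in Foxp3-positive cells and 1.59 in the cells with 0 Foxp3 UMIs. Cd74 was at -1.72 in Foxp3-positive cells against 0.58 in the cells with 0 Foxp3 UMIs, and among the Foxp3-positive cells at 0.82 with an Il2ra UMI and -2.60 without. Single cells held most of these UMIs: 554 of 604 for Xcl1, 158 of 159 for Ccl4 and 301 of 382 for Cd74 in the Foxp3eGFP genotype.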

How the results depend on the processing

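There was 1 mouse per genotype in 1 capture, so no difference can be told apart from a difference between these 2 mice. No paired analysis was possible because each genotype has 1 mouse and the labels number no replicates. The count of genes past 1.5-fold rested on the UMI minimum. With at least 50 UMIs in place of 100 it was 138 higher (1.82%) and 224 lower (2.95%) of 7585 genes, and with at least 200 it was 7 higher (0.195%) and 28 lower (0.781%) of 3583. With each cell weighted equally 126 genes were lower in place of 82. Lta lay between -3.06 and -2.45 and the summed interferon list between -0.48 and -0.34 under the alternatives run. None of these results reversed, and the cause of the shifts in the counts by weighting was not tested. Of 312 values for the 24 named genes 310 kept the sign, and the exceptions were Gbp2 at -0.25 with at least 2 Foxp3 UMIs and -0.086 without an Il2ra UMI. Of 208 values for 16 lists 192 kept the sign. Both totals include the settings with at least 50 and at least 200 UMIs. Those settings change only which genes are counted, so their gene and list values could not differ. Many genes had under 200 UMIs, where the depth leaves wide intervals.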

Other observations

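Nrp2, Ifitm3 and Gm47283 also had whole intervals past 1.5-fold lower, and they were chosen after their values were seen. Nrp2, which encodes a neuropilin, had 39 UMIs in Lta-/- and 105 in Foxp3eGFP cells with a Foxp3 UMI, a log2 ratio of -1.18 (-1.75 to -0.64), and -1.71 in the cells with 0 Foxp3 UMIs. Ifitm3, an interferon-inducible membrane protein gene, was at -2.24 (-2.99 to -1.56) on 21 and 118 UMIs. A single cell of the macrophage-gene cluster held 36 of the 118, and without it the ratio was -1.72 (-2.49 to -1.02). Gm47283 had 233 and 559 UMIs, a log2 ratio of -1.02, and was at -1.20 in the cells with 0 Foxp3 UMIs. Nrgn, at -1.58 on 25 and 89 UMIs, was at -0.54 (-1.31 to 0.20) without the cell that held 46 of them.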
